A study of Mus musculus with 4 samples.

Results

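The 10 genes described here encode surface proteins by which a B cell shows that it has been activated, or costimulates and adheres to the T cell it meets. They are *Cd86*, *Cd80*, *Icosl*, *Cd40*, *Cd69*, *Cd83*, *Icam1*, *Cd44*, *Cd48* and *Slamf7*. The members were taken by gene symbol from the deposited counts by a rule that uses no measured value, though the list was drawn up with earlier results of these data known, and each symbol matched 1 of the 55401 listed genes. All 10 passed the filter on low counts, as did 11657 genes in all. RNA came from B220+ cells sorted (purity above 98%, per the Methods) from the spleen of C57BL/6J mice, in 2 libraries of NSD1B WT (Mb1-Cre+ NSD1+/+) and 2 of NSD1B KO (Mb1-Cre+ NSD1fl/fl). Mice of both genotypes carried Mb1-Cre, which is driven from the Cd79a gene and acts in the B lineage from its early stages. In NSD1B KO it removes exons 6 to 8 of *Nsd1*, which encodes a methyltransferase for lysine 36 of histone H3. The study's Methods give an age of 7 to 9 weeks and both sexes for its mice in general, and neither the labels nor the Methods describe the sorted cells as immunised or stimulated. Which mice, and how many, went into a library is not given in the sources used here, so the p-values measure only the spread between these libraries, which may be technical.

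A naive T cell needs a signal through CD28 besides the one through its antigen receptor, and CD80 and CD86 are the ligands that give it. Resting B cells carry little CD80 and CD86, and stimulation through the B cell receptor, CD40 or Toll-like receptors raises both. CD40 receives help from T cells and acts through TRAF adaptors on NF-kB, CD69 and CD83 appear on the surface soon after stimulation, and ICAM-1, CD44, CD48 and SLAMF7 take part in adhesion and contact between cells.

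Counts on genes ranged from 6769118 to 7566834 per library. *Nsd1*, the targeted gene, had 497 and 480 counts in NSD1B WT and 284 and 280 in NSD1B KO. This fall by 0.74 on the log2 scale (adjusted p = 8.08e-08 by edgeR's quasi-likelihood test) was read over the whole gene, while Cre removes exons 6 to 8. All 10 B cell genes on a marker list were detected, with a summed level of 50497 to 50609 CPM (counts on a gene per 1000000 counts on genes, scaled by TMM) in NSD1B WT and 40841 to 41541 in NSD1B KO, and 1 was higher and 7 were lower, beside 78.2% of all tested genes past the same threshold (an adjusted p below 0.05 with a fold change above 1.2). Within that list *Cd79a*, a chain of the B cell receptor, fell by 1.33 on the log2 scale, and *Pax5*, the transcription factor that holds B cell identity, fell by 3.29. *Ebf1*, a factor of early B cell development, rose by 0.75, and *Cd79b*, the partner of *Cd79a*, was at 0.26 on the log2 scale and not past the threshold. Of 10 genes of monocytes and macrophages all had a count in some library, and their summed level was 4768 to 4846 CPM in NSD1B WT and 5991 to 6371 in NSD1B KO. Of the 8 tested, 5 were higher and 2 lower. *Lyz2*, the lysozyme of myeloid cells, held most of that sum, at 4492 ± 64.2 CPM in NSD1B WT and 5717 ± 247 in NSD1B KO (mean ± SD, n = 2). The 5 tested genes of red cells were all higher, and their sum went from 35.6 to 39.6 CPM to 1690 to 1944. In bulk RNA such as this, fewer cells of a type and less RNA per cell cannot be told apart.

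**Figure D1:**
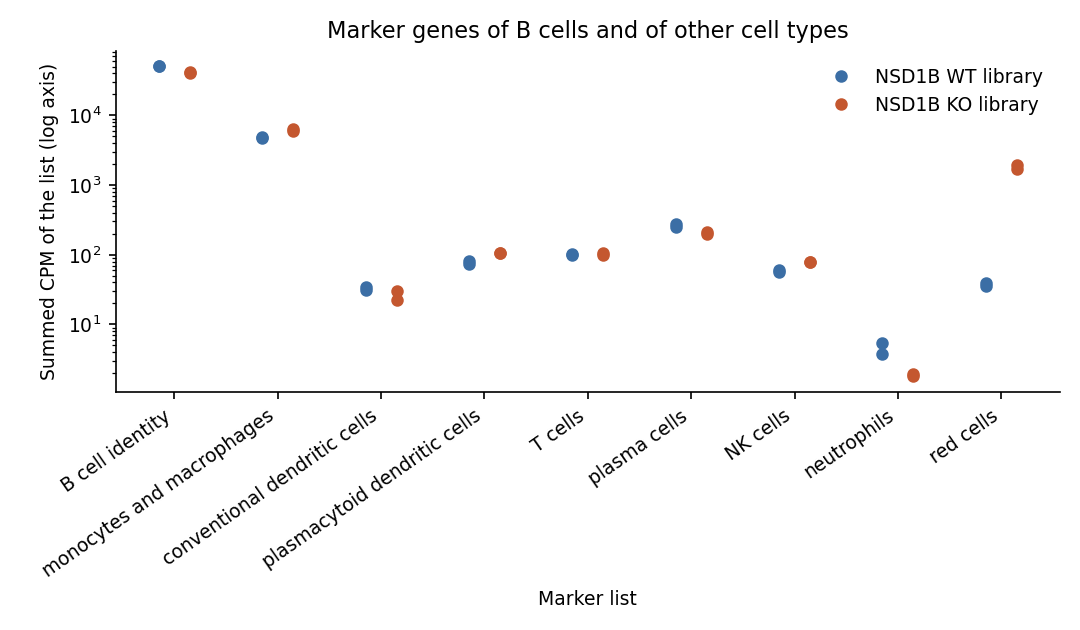
Summed CPM (log axis) of marker lists of B cells and other cell types in each library, with NSD1B WT in blue and NSD1B KO in orange. B cell genes hold the largest sum in every library, the monocyte and macrophage list lies between 4768 and 6371 CPM, and the red cell list differs most between genotypes.

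To ask how these surface genes stand to each other, their levels were compared as CPM per kb of exon (GENCODE M21). In NSD1B WT the order was *Cd48*, *Cd83*, *Cd69*, *Cd44*, *Cd86*, *Icam1*, *Cd40*, *Cd80*, *Slamf7* and *Icosl*, from 501 ± 3.37 CPM per kb for *Cd48* down to 0.435 ± 0.113 for *Icosl* (mean ± SD, n = 2). Of the neighbours in that order only *Icam1* and *Cd40* overlapped between libraries, at 10.99 ± 0.895 and 10.5 ± 0.233 CPM per kb. In NSD1B KO *Cd48* was again the highest, at 439 ± 24.4 CPM per kb. There *Cd69* stood above *Cd83* (135 ± 8.98 and 122 ± 7.48 CPM per kb), *Cd86* stood above *Cd44* (77.0 ± 1.08 and 31.9 ± 0.646), and *Icam1* was last, at 0.805 ± 0.0782, overlapping with *Icosl* at 1.01 ± 0.532. The ratio of *Cd69* to *Cd83*, which does not depend on the scaling of libraries, was 0.647 and 0.677 in the NSD1B WT libraries and 1.11 and 1.10 in the NSD1B KO libraries.

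**Figure D2:**
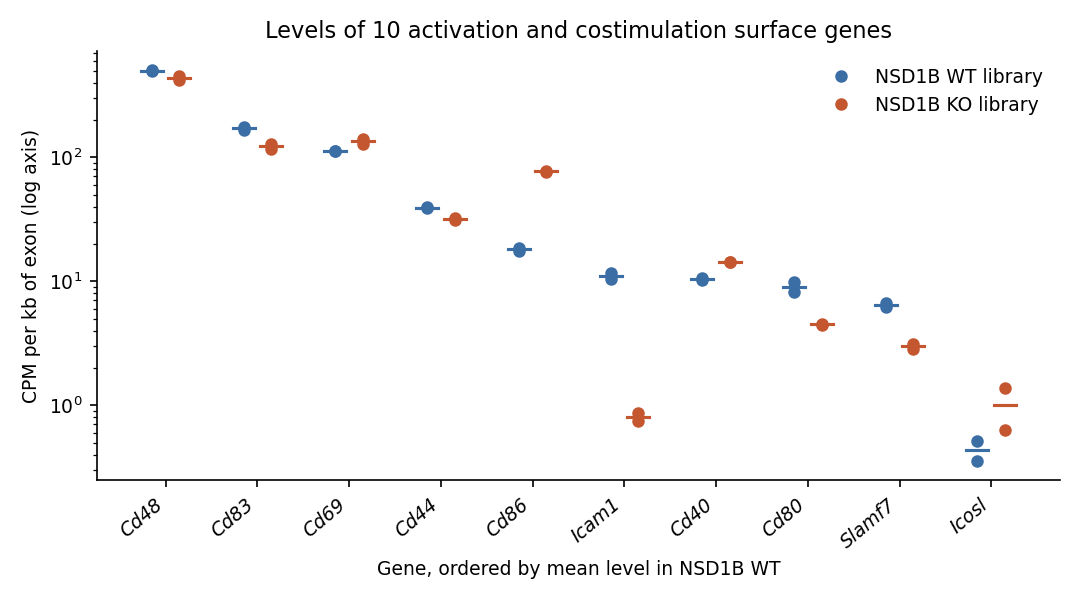
CPM per kb of exon (log axis) of the 10 genes in each library (points) with the mean of each genotype (bars). *Cd86* is well above its NSD1B WT level in both NSD1B KO libraries, *Icam1* is far below it, and the points of *Icosl* are the most spread.

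Between genotypes, 3 of the 10 genes rose in NSD1B KO (*Cd86*, *Icosl*, *Cd40*), 5 fell (*Icam1*, *Slamf7*, *Cd80*, *Cd83*, *Cd44*) and 2 (*Cd69*, *Cd48*) were not past the threshold. A gene counted as risen or fallen with a p, adjusted over all tested genes, below 0.05 and a fold change above 1.2 in edgeR's quasi-likelihood test. Over all tested genes 78.2% were past this threshold, 37.1% higher and 41.1% lower, so 8 of 10 is a share near the background. The median log2 fold change was -0.25 over the 10 genes and -0.10 over all tested genes. The median size of the change was 0.74 on the log2 scale, against 1.16 over all tested genes with genes lacking any count in a genotype set to the lower bound of their change. Of the 10 genes 0 lacked counts in a genotype, beside 2203 of the 11657 tested genes. For all 10 genes the values of the genotypes did not overlap, as for 88.1% of tested genes. By mean level, 5 of the genes stood among the 2914 tested genes above 46.3 CPM, of which 74.0% were past the threshold. Another 4 stood between 15.4 and 46.3 CPM, where this was 80.1%, and *Icosl* stood below 5.06 CPM, where it was 79.2%. Apart from *Icosl*, the 2 libraries of a genotype differed by at most 0.27 on the log2 scale in NSD1B WT and 0.20 in NSD1B KO.

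**Figure D3:**
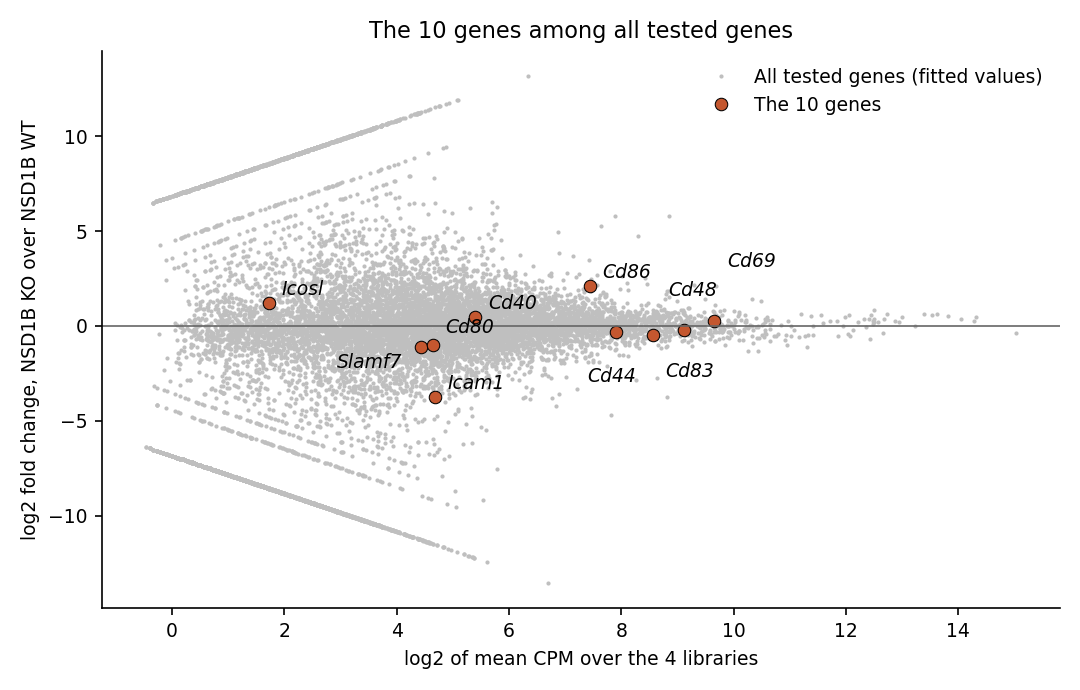
Fitted log2 fold change of NSD1B KO over NSD1B WT against the log2 of the mean CPM for all 11657 tested genes (grey), with the 10 genes in orange. The slanted bands at the upper and lower edge are genes with no count or very few counts in a genotype, none of which is among the 10.

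Among the ligands of the B7 family, *Cd86* rose and *Cd80* fell. *Cd86* (ENSMUSG00000022901.13), on chromosome 16 from 36603869 to 36666081 (minus strand, GRCm38/mm10), had 488 and 470 counts in NSD1B WT and 2009 and 1916 in NSD1B KO. Its level was 66.3 ± 2.83 CPM in NSD1B WT and 282 ± 3.97 in NSD1B KO (mean ± SD, n = 2). Both NSD1B KO libraries were thus far above both NSD1B WT libraries, a 4.25-fold difference (log2 fold change 2.09, 95% interval 1.91 to 2.27, adjusted p = 1.11e-25 by edgeR). *Cd80* (ENSMUSG00000075122.5) is on chromosome 16 as well, from 38455561 to 38496335 (plus strand), and encodes the other ligand of CD28 and CTLA-4. It had 261 and 222 counts in NSD1B WT and 121 and 111 in NSD1B KO, or 33.4 ± 4.35 and 16.7 ± 0.223 CPM, so the NSD1B KO libraries were lower, without overlap. The *Cd80* log2 fold change was -1.004 (95% interval -1.33 to -0.68, adjusted p = 2.74e-07 by edgeR). The ratio of *Cd86* to *Cd80* per exon length was 1.89 and 2.14 in the NSD1B WT libraries and 16.8 and 17.5 in the NSD1B KO libraries. Because both genes are read in the same library, this ratio is free of the scaling between libraries.

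Macrophages and dendritic cells also carry CD86, and their markers are therefore given beside it. *Csf1r*, the receptor that macrophages depend on, had 23 and 27 counts in NSD1B WT and 375 and 335 in NSD1B KO. *Ly6c2*, a gene of classical monocytes, had 49 and 38 counts in NSD1B WT and 603 and 508 in NSD1B KO. *Adgre1* (F4/80) and *Cd68* rose too, by 0.91 and 1.09 on the log2 scale, whereas *C1qa* fell by 0.78 and *Spic*, with 92 and 105 counts in NSD1B WT, had none in NSD1B KO. *Zbtb46*, *Flt3*, *Itgax* and *Clec9a*, defining genes of conventional dendritic cells, had no count in any library. *Xcr1*, the receptor of the cross-presenting subset, had 0 counts in NSD1B WT and 36 and 26 in NSD1B KO, at least 21.4-fold higher, whereas *Clec10a* had 55 and 44 counts in NSD1B WT and none in NSD1B KO, at least 31.8-fold lower. The list of 7 summed to 31.2 to 34.6 CPM in NSD1B WT and 22.3 to 29.7 in NSD1B KO. The part of myeloid and dendritic cell RNA in the *Cd86* result was not tested.

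*Icosl* (ENSMUSG00000000732.9), on chromosome 10 from 78069302 to 78083913 (plus strand), encodes the ligand of ICOS, a receptor of helper T cells. It was counted 17 and 12 times in NSD1B WT and 21 and 43 times in NSD1B KO, or 2.01 ± 0.521 and 4.66 ± 2.46 CPM. The lower NSD1B KO library was close to the higher NSD1B WT library, and the other was well above. Its log2 fold change was 1.197 (95% interval 0.35 to 2.04, adjusted p = 0.00858 by edgeR). Without NSD1B KO replicate 2 the *Icosl* value was 0.54 (adjusted p = 0.381), without NSD1B WT replicate 2 it was 0.99 (adjusted p = 0.131), and without NSD1B KO replicate 1 or NSD1B WT replicate 1 it was 1.66 or 1.52. DESeq2 gave *Icosl* an adjusted p of 0.0982 and limma-voom one of 0.0682.

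Of 11 further ligands that costimulate or restrain T cells, 3 had enough counts to be tested and 5 (*Cd276*, *Cd70*, *Nectin2*, *Pvr*, *Tnfsf4*) had none in any library. *Cd274* (PD-L1), the inhibitory ligand of PD-1, fell from 38.6 ± 2.61 to 27.7 ± 0.402 CPM (log2 fold change -0.48, adjusted p = 0.00164 by edgeR). *Pdcd1lg2* (PD-L2), the second ligand of PD-1, rose from 27.3 ± 2.79 to 37.6 ± 3.29 CPM (log2 fold change 0.46, adjusted p = 0.00315 by edgeR). *Vsir*, the inhibitory protein VISTA, rose by 0.33 (adjusted p = 0.0154 by edgeR), and without NSD1B KO replicate 2 it was not past the threshold (*Vsir* log2 fold change 0.27, adjusted p = 0.0832). On the side of the receptors, *Cd28*, *Icos* and *Cd40lg* had 0 counts in all 4 libraries. *Ctla4*, the inhibitory receptor of CD80 and CD86, had 35 and 22 counts in NSD1B WT and 198 and 167 in NSD1B KO, 6.61-fold higher in NSD1B KO (log2 fold change 2.73 ± 0.24, standard error, with an adjusted p of 1.81e-14 by edgeR). *Cd4* and *Cd8a* had no count in any library. The list of 10 T cell genes summed to 97.7 to 103 CPM in NSD1B WT and 98.9 to 106 in NSD1B KO. Of its 7 tested genes, 3 were higher (among them *Cd3d* and *Cd3g*) and 3 lower (*Trac*, *Lat*, *Thy1*), beside 37.1% and 41.1% of all tested genes. The part of T cell RNA in the *Ctla4* result was not tested.

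By a fixed rule, the 5 genes most like *Cd86* over the 4 libraries were sought among the 1279 other tested genes within 2-fold of its mean level. They were *Ifit1bl1*, *Ifngr1*, *Ginm1*, *Cdc5l* and *Igkv12-89*, at a Euclidean distance of 0.0855 to 0.167 between log2 CPM values centred on each gene's mean. *Ifngr1*, a chain of the interferon gamma receptor, had 69.8 and 70.7 CPM in NSD1B WT and 311 and 309 in NSD1B KO. Igkv genes have near-identical copies, so the counts of *Igkv12-89* are uncertain. With 4 libraries in 2 genotypes, this distance mostly compares the size of the difference between genotypes.

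*Cd40* (ENSMUSG00000017652.16), on chromosome 2 from 165055627 to 165072948 (plus strand), encodes the receptor of T cell help. It had 251 and 265 counts in NSD1B WT and 352 and 330 in NSD1B KO, or 35.7 ± 0.795 and 49.0 ± 0.0959 CPM. The libraries of each genotype lay close together and those of NSD1B KO were higher, by 1.37-fold (log2 fold change 0.46, 95% interval 0.21 to 0.71, adjusted p = 0.000848 by edgeR).

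Downstream of CD40, 13 of 20 adaptors, kinases and NF-kB genes rose, 6 fell and 1 (*Ikbkg*) was not past the threshold, with a median log2 fold change of 1.04 against -0.10 over all tested genes, of which 37.1% rose and 41.1% fell. *Ikbkg* was lower and past the threshold in 6 of 15 alternative fits. Among the adaptors, *Traf3*, which holds the non-canonical pathway in check, rose from 11.5 ± 2.16 to 61.4 ± 1.04 CPM, and *Traf1* rose from 13.8 ± 2.13 to 31.5 ± 5.91 CPM. *Traf2* rose from 0 and 2 counts to 24 in each NSD1B KO library, and *Traf5* from 0 counts in NSD1B WT to 70 and 37. *Traf6* had 298 and 265 counts in NSD1B WT and none in NSD1B KO, and is at least 181-fold lower. *Map3k14*, the kinase NIK of the non-canonical pathway, had 116 and 138 counts in NSD1B WT and none in NSD1B KO, at least 81.5-fold lower. These bounds take 3 counts over the libraries of the genotype without a count, and cover counting error only. Such genes were common, with 2203 of the 11657 tested genes lacking any count in a genotype. The kinases *Chuk* and *Ikbkb* rose by 2.06 and 0.84 on the log2 scale. Of the NF-kB subunits, *Relb* (6 and 5 counts in NSD1B WT, 112 and 100 in NSD1B KO), *Rela*, *Nfkb1* and *Rel* rose, by 4.29, 2.07, 1.37 and 0.42 on the log2 scale, whereas *Nfkb2* fell by 1.87. Of the inhibitors, *Nfkbia*, itself a target of NF-kB, fell from 230 ± 2.24 to 98.3 ± 3.56 CPM (log2 fold change -1.23, standard error 0.09). *Nfkbie* fell by 0.55 and *Nfkbib* rose by 2.57 on the log2 scale. *Tnfaip3* (A20), another inhibitor and target, had 0 counts in NSD1B WT and 69 and 77 in NSD1B KO, at least 50.7-fold higher. Of the ubiquitin ligases bound to TRAF2, *Birc3* rose by 0.90 and *Birc2* fell by 0.98 on the log2 scale.

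*Cd69* and *Cd83* are used in the field as early marks of activation. *Cd83* fell, and *Cd69* was just short of the threshold on the higher side. *Cd69* (ENSMUSG00000030156.5), on chromosome 6 from 129267325 to 129275436 (minus strand), encodes a lectin that keeps the sphingosine 1-phosphate receptor S1PR1 off the surface. It had 5249 and 5377 counts in NSD1B WT and 6638 and 5650 in NSD1B KO, or 735 ± 0.691 and 881 ± 58.4 CPM. The NSD1B KO libraries were higher without overlap, but the difference was 1.199-fold, just under the limit of 1.2, and so not past the threshold (log2 fold change 0.26, 95% interval 0.11 to 0.42, adjusted p = 0.00185 by edgeR). Without NSD1B WT replicate 1, NSD1B WT replicate 2 or NSD1B KO replicate 2 the *Cd69* difference was past it, at 0.29, 0.29 and 0.33, and once the dependence of fold changes on exon length and GC content was removed it was 0.10. *Cd83* (ENSMUSG00000015396.4), on chromosome 13 from 43784775 to 43803132 (plus strand), encodes a protein that stabilises MHC class II and CD86 on the surface. It had 3206 and 3140 counts in NSD1B WT and 2364 and 2027 in NSD1B KO, or 439 ± 13.5 and 315 ± 19.2 CPM, with the NSD1B KO libraries lower. The *Cd83* log2 fold change was -0.48 (95% interval -0.64 to -0.32, adjusted p = 4.15e-07 by edgeR), and with that dependence removed it was -0.20, no longer past the threshold.

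Of 20 other activation genes, 13 were tested, of which 3 rose and 9 fell, beside 37.1% and 41.1% of all tested genes, with a median log2 fold change of -1.14 against -0.10. *Egr1* and *Egr2*, immediate early genes of receptor signalling, and *Tfrc*, *Ccl3* and *Ccl4* had no count in any library. *Nr4a1* (Nur77), which follows the strength of the antigen receptor signal, had 135 and 93 counts in NSD1B WT and 0 and 1 in NSD1B KO. *Egr3* had 48 and 52 counts in NSD1B WT and 0 and 1 in NSD1B KO. *Myc* fell from 269 ± 21.1 to 72.4 ± 6.71 CPM (log2 fold change -1.89), *Ccnd2*, a cyclin of cell cycle entry, fell by 1.54 and *Cd38* by 1.14 on the log2 scale. *Il2ra* (CD25) went the other way, from 0 counts in NSD1B WT to 93 and 89 in NSD1B KO, at least 63.0-fold higher. *Irf4* and *Junb* rose, by 0.32 and 0.37 on the log2 scale, and *Fos* fell by 0.68. These small changes were no longer past the threshold when single libraries were left out. For *Irf4* this was so without NSD1B WT replicate 1 (adjusted p = 0.131) or NSD1B KO replicate 1 (0.0811), and for *Junb* without NSD1B WT replicate 1 (0.164) or NSD1B KO replicate 2 (0.193). For *Fos* it was so without NSD1B WT replicate 1 (0.0928) or 2 (0.222) or NSD1B KO replicate 2 (0.238), all by edgeR. Of the partners of CD69 and CD44, 2 of 7 tested rose and 2 fell, beside 78.2% of all tested genes past the threshold. *S1pr1*, which encodes the receptor that CD69 holds in the cell, was at 153 ± 2.14 and 178 ± 4.05 CPM (log2 fold change 0.22), not past the threshold, and with the dependence on exon length and GC content removed it was past it, at 0.34.

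**Figure D4:**
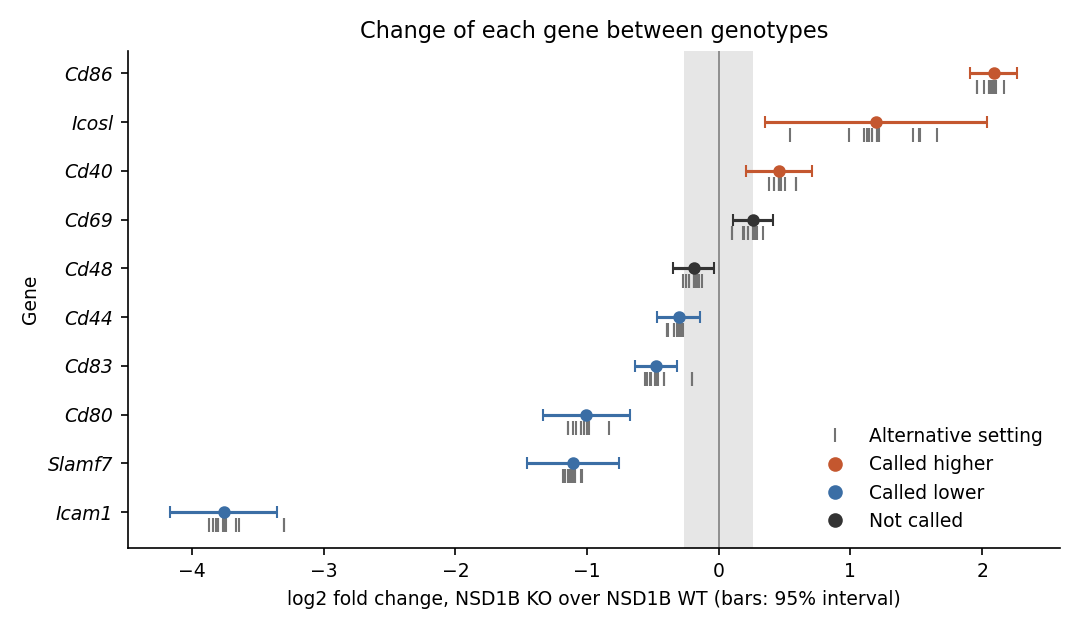
Log2 fold change of NSD1B KO over NSD1B WT for each gene with its 95% interval, coloured by direction where past the threshold. Grey ticks are the same value under each alternative setting and the grey band marks fold changes below 1.2, and the ticks of *Cd83*, *Cd69* and *Cd48* cross an edge of the band.

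The largest difference among the 10 genes was the fall of *Icam1* (ENSMUSG00000037405.8), on chromosome 9 from 21015985 to 21028817 (plus strand). It encodes ICAM-1, the ligand of the integrin LFA-1 at the contact of B and T cells. It had 362 and 330 counts in NSD1B WT and 27 and 22 in NSD1B KO, or 47.9 ± 3.90 and 3.51 ± 0.341 CPM. Both NSD1B KO libraries were thus far below both NSD1B WT libraries, at a 13.5-fold difference (log2 fold change -3.76, 95% interval -4.16 to -3.36, adjusted p = 5.44e-22 by edgeR). Gm47079, an antisense RNA that shares 511 bp of exon with *Icam1* on the opposite strand, had 209 and 252 counts in NSD1B WT and 22 and 17 in NSD1B KO (log2 fold change -3.50). Whether reads were counted by strand is not given in the sources used here, so reads of the pair cannot be told apart with certainty. The ratio of *Cd86* to *Icam1* per exon length was 1.61 and 1.70 in the NSD1B WT libraries and 88.6 and 104 in the NSD1B KO libraries.

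The partners of ICAM-1 went both ways. Of 7 tested, 3 rose, 1 fell and 3 were not past the threshold, beside 78.2% of all tested genes past it. The LFA-1 chains *Itgal* and *Itgb2* were at 51.0 ± 1.92 and 76.0 ± 1.22 CPM in NSD1B WT and 48.6 ± 2.31 and 78.8 ± 1.12 in NSD1B KO. With the dependence on exon length and GC content removed, *Itgal* and *Itgb2* were past the threshold as higher, at 0.29 (adjusted p = 0.0189 by edgeR) and 0.40 (adjusted p = 0.000423). *Icam2*, a second ligand of LFA-1, was at 81.5 ± 6.01 and 77.1 ± 2.02 CPM. *Tln1* and *Fermt3*, which encode talin and kindlin-3 and activate integrins from inside the cell, rose by 0.997 and 1.28 on the log2 scale. *Itgam*, the CD11b chain of myeloid and B1 cells, fell from 76.1 ± 11.3 to 43.8 ± 8.28 CPM (log2 fold change -0.80).

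*Cd44* (ENSMUSG00000005087.17), on chromosome 2 from 102811141 to 102901665 (minus strand), encodes the receptor of hyaluronan and rises on activated and memory lymphocytes. It had 1892 and 1960 counts in NSD1B WT and 1531 and 1473 in NSD1B KO, or 266 ± 2.36 and 216 ± 4.38 CPM. The NSD1B KO libraries were lower by a small margin that was wider than the spread within a genotype (log2 fold change -0.30, 95% interval -0.47 to -0.14, adjusted p = 0.000664 by edgeR). Of the genes for proteins that link CD44 to actin, *Msn* (moesin) rose by 0.79 and *Rdx* (radixin) fell by 0.33 on the log2 scale. *Rdx* was not past the threshold by DESeq2 (adjusted p = 0.11). *Ezr* (ezrin) was at -0.25 and not past the threshold.

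*Cd48* and *Slamf7* are neighbours in the cluster of SLAM genes on chromosome 1. CD48 is a membrane-anchored adhesion protein that binds CD2 and 2B4, and SLAMF7 binds itself on a neighbouring cell and is abundant on plasma cells. *Slamf7* (ENSMUSG00000038179.13), from 171632403 to 171653035 on the minus strand, had 203 and 222 counts in NSD1B WT and 102 and 88 in NSD1B KO, or 29.4 ± 1.39 and 13.6 ± 0.774 CPM. It was lower in both NSD1B KO libraries (log2 fold change -1.11, 95% interval -1.45 to -0.76, adjusted p = 1.27e-07 by edgeR). Gm37787, an antisense RNA that shares 423 bp of exon with *Slamf7* on the opposite strand, had 11 and 27 counts in NSD1B WT and 0 in NSD1B KO. *Cd48* (ENSMUSG00000015355.13), from 171682009 to 171705258 on the plus strand, had 4236 and 4375 counts in NSD1B WT and 3906 and 3376 in NSD1B KO, or 596 ± 4.01 and 522 ± 29.0 CPM. Its NSD1B KO libraries were lower without overlap, but the difference was 1.14-fold and not past the threshold (log2 fold change -0.19, 95% interval -0.34 to -0.03, adjusted p = 0.0229 by edgeR). Scaled by library size alone, *Cd48* was at -0.27 and past it.

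The other genes of this cluster went both ways. Of 7 tested genes on a list of SLAM receptors and CD2 partners, 3 rose, 3 fell and 1 was not past the threshold, beside 78.2% of all tested genes past it, with a median log2 fold change of -0.08. In order along the chromosome, *Cd244a*, which encodes the CD48 receptor 2B4, had 0 counts in NSD1B WT and 146 and 123 in NSD1B KO, at least 92.9-fold higher. *Ly9*, which lies within the span of *Cd244a* on the other strand, rose from 22 and 30 counts to 104 and 121. *Slamf7* and *Cd48* follow, then *Slamf1*, which fell from 331 and 337 counts to 147 in each NSD1B KO library (log2 fold change -1.13), and *Cd84*, which rose by 0.77 on the log2 scale. *Slamf6* was at 109 ± 2.74 and 104 ± 0.250 CPM and not past the threshold, *Slamf9* had 385 and 444 counts in NSD1B WT and none in NSD1B KO, at least 266-fold lower, and *Slamf8* had no count. *Cd2*, the other receptor of CD48, fell from 5982 and 6091 counts to 436 and 426, or 835 ± 2.78 to 62.0 ± 1.93 CPM (log2 fold change -3.75, standard error 0.09, adjusted p = 1.02e-35 by edgeR). Of the plasma cell genes *Sdc1* and *Tnfrsf17* had no count in any library, and the list of 6 summed to 249.5 to 273 CPM in NSD1B WT and 198 to 212 in NSD1B KO. Its 4 tested genes went both ways. *Prdm1* rose from 17 and 21 counts to 59 and 52 (log2 fold change 1.59). *Jchain* and *Xbp1* fell by 0.54 and 0.27 on the log2 scale, and *Mzb1* was not past the threshold.

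**Figure D5:**
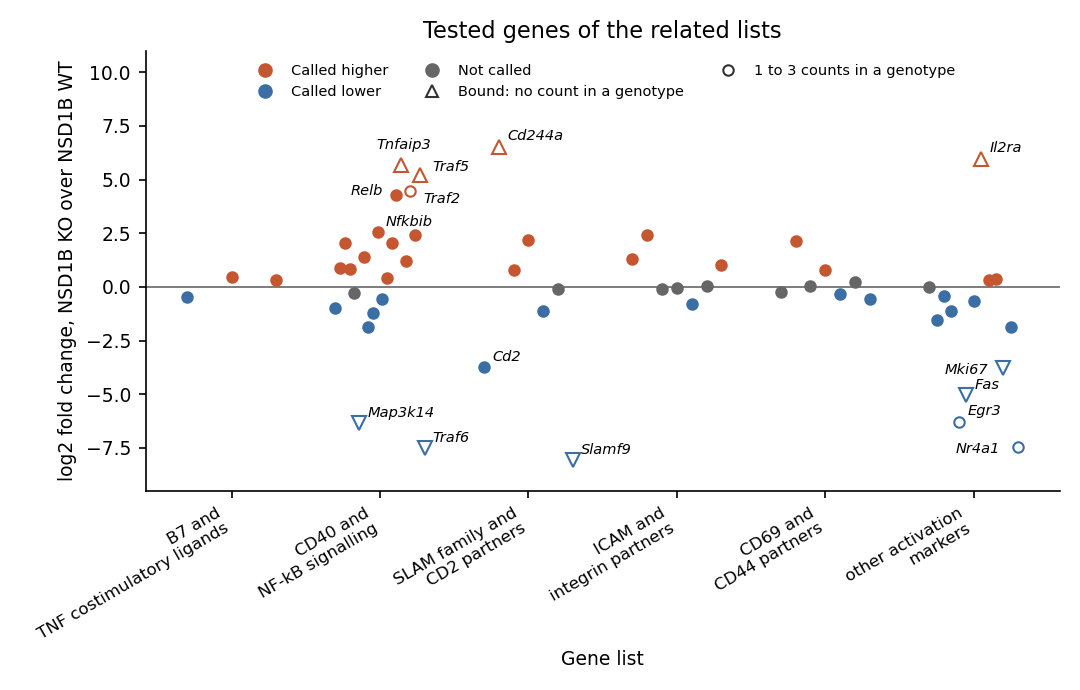
Log2 fold change of NSD1B KO over NSD1B WT for the tested genes of the 6 related lists, 57 in all. Triangles are lower bounds for genes with no count in a genotype and open circles are fitted values of genes with 1 to 3 counts in a genotype. In the CD40 and NF-kB list most points lie above 0, among the other activation markers most lie below, and the SLAM list is split.

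Together the 6 lists held 26 higher and 22 lower genes among 57 tested, or 84.2%, beside 78.2% of all tested genes.

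The sequence before the start of transcription was available from RefSeq (GRCm38.p6) for 6 of the 10 genes, *Cd80*, *Icosl*, *Cd44*, *Cd48*, *Slamf7* and *Icam1*. The 250 bases before the start are shown for the 3 genes that fell most, with the capitals marking matches to AP-1 (TGANTCA) in *Cd80* and *Slamf7* and to the E-box (CANNTG) in *Icam1*, searched on both strands. The RefSeq start lies 3372 bases downstream of the 5' end of the GENCODE gene for *Cd80*, 4036 bases downstream for *Slamf7* and 45 bases upstream for *Icam1*, so the first and second stretches lie inside the gene spans given above.
Cd80, chr16:38458683-38458932, plus strand: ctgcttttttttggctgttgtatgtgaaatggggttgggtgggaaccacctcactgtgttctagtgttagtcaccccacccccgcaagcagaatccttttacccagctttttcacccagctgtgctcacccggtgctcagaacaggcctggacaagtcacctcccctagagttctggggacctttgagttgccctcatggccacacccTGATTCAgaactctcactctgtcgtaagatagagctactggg
Slamf7, chr1:171649000-171649249, minus strand: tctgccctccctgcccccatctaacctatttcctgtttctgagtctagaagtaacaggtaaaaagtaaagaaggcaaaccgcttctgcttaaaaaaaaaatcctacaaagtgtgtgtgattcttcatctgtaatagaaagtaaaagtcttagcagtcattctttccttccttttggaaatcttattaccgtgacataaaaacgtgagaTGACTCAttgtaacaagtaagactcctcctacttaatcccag
Icam1, chr9:21015690-21015939, plus strand: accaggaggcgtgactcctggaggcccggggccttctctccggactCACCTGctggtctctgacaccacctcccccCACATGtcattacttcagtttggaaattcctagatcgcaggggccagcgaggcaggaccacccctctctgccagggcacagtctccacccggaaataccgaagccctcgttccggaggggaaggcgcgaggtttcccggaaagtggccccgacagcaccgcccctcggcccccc

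Among the 6 genes, an AP-1 match was found before *Cd80* and *Slamf7*, in each at 36 bases from the start, and in 6.75% of 32851 RefSeq promoters of the same length. An E-box match was found before *Cd80*, *Icosl*, *Cd48*, *Slamf7* and *Icam1*, and in 66.2% of promoters. The NF-kB consensus (GGGRNNYYCC) was matched before *Icosl*, and in 7.25% of promoters. Only full matches were counted. The *Icam1* stretch holds tggaaattcc, which departs from that consensus in its first base and so was not counted. These matches describe letters and not bound sites.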

How the data were processed

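Whole-number counts per gene, not normalized, were deposited by the authors for each of 4 libraries. Their Methods describe paired-end reads of 150 bp mapped to mm10 with Bowtie2 and FPKM from Cufflinks, which were not used here. How reads were counted, with or without strand, and on which annotation release is not given in the sources used here. Closing lines that name no gene held 58.0% to 60.0% of the counted reads and stayed out of library sizes. Of 55401 identifiers, 99.5% matched GENCODE M21 (GRCm38) without their version number, which gave positions and exon lengths.

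Genotypes were taken from the labels. Counts were scaled by TMM in edgeR 4.0.16 (R 4.3.3), with factors of 0.952 to 1.03, and filtered by filterByExpr (minimum count 10, minimum total 15). NSD1B KO was compared with NSD1B WT by the quasi-likelihood test, with Benjamini-Hochberg adjustment over 11657 genes and genes were called at a fold change above 1.2 with an adjusted p below 0.05. The Methods state these limits without saying that p was adjusted. Standard errors are the log2 fold change over the root of F, and intervals cover 95%. The coefficient of variation between libraries beyond counting error was 0.0735. For a gene without counts in a genotype, 3 counts over its libraries (0.208 CPM in NSD1B WT, 0.216 in NSD1B KO) gave a bound. No permutation over libraries was made for single genes, since 2 against 2 cannot reach 0.05 by an exact test.

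Alternatives were other scalings, DESeq2 1.42.0, limma-voom (limma 3.58.1), other filters and thresholds, each library left out, the replicate number as a block, a loess trend (span 0.5) with exon length and GC content removed, and immunoglobulin and mitochondrial genes left out. The procedure was tested on simulated data. The genes, lists and tests were chosen with earlier results of these data known. Named genes are the 10 members, *Nsd1*, genes of the lists, genes whose exons overlap a member's, and the 5 genes closest to *Cd86*. Protein sequences were not used here.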

Additional observations from a re-analysis of the deposited data

How the results depend on the processing

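Each of the 10 genes kept its direction under all 15 alternative fits. *Cd86*, *Cd80*, *Cd40*, *Cd44*, *Slamf7* and *Icam1* also stayed past the threshold in each, at log2 fold changes of 1.96 to 2.16, -1.14 to -0.83, 0.38 to 0.59, -0.39 to -0.27, -1.19 to -1.03 and -3.87 to -3.30. *Icosl* lost its call in 4 fits and *Cd83* in 2, while *Cd69* gained one in 7 and *Cd48* in 1. At stricter limits (adjusted p under 1e-05, log2 fold change beyond 0.5 either way), which 57.2% of tested genes passed, 1 of the 10 genes was higher and 3 were lower, in place of 3 and 5. Over all genes, a filter of 1 CPM in all 4 libraries left 8334 tested, of which 2855 were higher and 2991 lower, in place of 4324 and 4795. Removing the dependence on exon length and GC content moved the median log2 fold change of all tested genes from -0.10 to 0.07. With the replicate number as a block, 3 of the 10 genes were higher and 5 lower and 4254 and 4706 of all tested genes. The labels do not say that a number marks a shared mouse or day, and the deviations of same-numbered libraries from their genotype means correlated at 0.06 across genes, which are not independent replicates. A tally of these fits covered 55 genes, namely the genes of the 6 lists past the threshold, *Ctla4*, *Ikbkg*, *Slamf6*, *Itgal*, *Itgb2*, *Icam2* and *S1pr1*. Of its 811 values, 766 kept direction and side of the threshold, 29 lost the call, 10 gained one (*Ikbkg* in 6 fits, *Itgb2* and *S1pr1* in 2 each) and 6 changed sign. In this tally the changes of sign were those of *Itgal* (0.29 with the dependence on exon length and GC content removed, with and without the block, both past the threshold), *Icam2* (0.25 in both of these fits, and -0.13 to 0.027 with single libraries left out) and *Itgb2* (-0.026 by library size alone), none of which is past the threshold as reported. *Ezr*, *Klf2* and *Bcl2a1b*, also not past the threshold as reported, were outside the tally and were less stable. *Ezr* (-0.25 as reported) was past it as lower by library size alone (-0.33) and upper quartile scaling (-0.29). With the dependence on exon length and GC content removed, *Ezr* was at 0.085. *Klf2* (0.044 as reported) was at -0.033 by library size alone, and *Bcl2a1b* (-0.0040) was at 0.22 with that dependence removed. With 2 libraries a genotype, small differences such as those of *Cd69* and *Cd48* rest on where the fold limit is set.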

Other observations

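Among genes of germinal centre B cells, *Rgs13* had 0 counts in NSD1B WT and 163 and 124 in NSD1B KO, at least 99.0-fold higher, and *Bcl6* rose from 34 and 35 counts to 112 and 91. *S1pr2* and *Gcsam* had no count in any library.

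Of the other marker lists, plasmacytoid dendritic cells (6 genes) summed to 74.7 to 81.2 CPM in NSD1B WT and 105.9 to 106.4 in NSD1B KO, where *Bst2* held the whole sum (it rose by 0.71 on the log2 scale) and *Smim5* went from 92 and 85 counts to none, with *Siglech*, *Klk1* and *Cox6a2* at 0 in all libraries. NK cells (6 genes) summed to 55.8 to 59.6 and 79.7 to 79.9 CPM, in NSD1B KO from *Nkg7* alone, while *Klrb1c* went from 26 and 21 counts to none, with *Ncr1*, *Gzma*, *Eomes* and *Klre1* at 0. Neutrophils (6 genes) summed to 3.83 to 5.46 and 1.81 to 1.93 CPM, with *S100a8* going from 39 and 28 counts to none and *S100a9* from none to 13 in each NSD1B KO library, and with *Ly6g*, *Camp*, *Ltf* and *Mpo* at 0. Of the sex-linked genes, *Xist* had 47 and 62 counts in NSD1B WT and 1 and 2 in NSD1B KO, and the 4 genes of chromosome Y were counted in all 4 libraries. Of these *Kdm5d*, *Uty* and *Ddx3y* rose, by 2.05, 0.61 and 0.55 on the log2 scale, and *Eif2s3y* fell by 2.45.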
